A study of Mus musculus with 12 samples.

Results

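Transcription of protein-coding genes needs a set of large protein complexes, and 70 genes that encode them were followed here, out of 11669 in the deposited table. They are the protein-coding genes with no transcription factor family entry whose symbol starts with Polr2, Gtf2 or Supt, or is Med or Taf followed by a digit. They comprised 12 genes of RNA polymerase II, 10 of the general transcription factors, 15 TAF genes, 26 Mediator genes and 7 Supt genes. Another 2 genes with such names were left out because the table gives them a transcription factor family, and 17 further genes so named in the GENCODE M21 annotation, among them Polr2j, Med12 and Taf6, were not analysed here. The rule goes by name and not by value, but it was chosen with earlier results of these data known.

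RNA polymerase II is the enzyme that makes messenger RNA. TFIID, built on the TATA-binding protein and its TAF partners, marks the promoter, and TFIIA, TFIIB, TFIIE, TFIIF and TFIIH bring in the polymerase and open the DNA. Mediator carries signals from enhancer-bound proteins to the polymerase. Kinases of the CDK family phosphorylate the tail of the largest polymerase subunit, and elongation factors such as DSIF, SPT6 and FACT, encoded by Supt genes and their partners, then travel with the enzyme.

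RNA was sequenced in 12 mouse libraries, 3 per group, after 24 h of treatment with NP-D@MP, NP-D@M, NP@M or PBS. The study's title describes a nanodrug coated with engineered cancer cell membrane that is aimed at CDKs, alongside an antibody to PD-L1. What NP, D, M and P stand for is not given, nor is the name TAMC that all 12 libraries carry. The labels call the samples immune cells of marrow, while the extraction protocol speaks of retinas. Of the markers of neutrophils and their precursors 10 of 12 were in the table, led by S100a9, and all 12 of monocytes and macrophages, led by Lyz2. Of 8 retina markers only Rbpms was, at 1.15 to 4.28 FPKM. No label says whether libraries of a group came from separate cultures or animals, so p-values measure the spread between these libraries, which may be technical.

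Values are FPKM, a read count divided by gene length and by a size factor of the library, as the authors scaled them. From them, whole reads could be recovered, 14444950 to 17338264 per library. The scaling was not to these totals: it corresponds to a library size of 0.468 to 0.553 times the recovered reads in the 6 libraries with D (NP-D@MP and NP-D@M) and 2.19 to 2.36 times in the 6 without (NP@M and PBS). Scaling to the recovered reads lowers the log2 difference of NP-D@M against NP@M by 2.17 before the pseudocount, and by a median of 1.52 over the 8615 genes tested. For NP-D@MP against PBS the same numbers are 2.24 and 1.56. Each result with D is therefore given as deposited and, where it matters, scaled to read totals, which cover the table's genes only.

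Libraries NP@M replicate 2 and PBS replicate 3 stood apart from their group mates. In them 9.11% and 9.31% of the table's genes had 0 reads, against 2.65% to 2.96% in the remaining libraries with no D. Long machinery genes tended to be higher in both and short ones lower, with exceptions such as Med15, Med25, Med20 and Taf6l, which were lower in both. Spearman's rank correlation between gene length and the difference from the group mates was 0.56 in NP@M replicate 2 and 0.55 in PBS replicate 3 over the 66 tested members, and 0.53 and 0.49 over all tested genes. Polr2a had 43.7 and 48.0 FPKM in them, where their mates had 21.6 to 27.0 FPKM. Results are given with and without both libraries where they differ.

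Promoter sequences are shown for the largest polymerase subunit and for 3 pairs of partner proteins whose transcripts moved apart as deposited. The sequences set the members of a pair side by side. Each is the 200 bases before the RefSeq transcription start on GRCm38.p6, 5′ to 3′ on the gene's own strand. Capitals mark a GC box (GGGCGG or its reverse CCGCCC), an ETS site (CCGGAAG or its reverse) or a TATA box (TATAAA or its reverse). The windows are Polr2a (chr11:69758634-69758833, minus strand), Supt4a (chr11:87737351-87737550, plus strand), Supt5 (chr7:28338720-28338919, minus strand), Gtf2a2 (chr9:70012348-70012547, plus strand), Gtf2a1 (chr12:91590488-91590687, minus strand), Taf10 (chr7:105744339-105744538, minus strand) and Taf8 (chr17:47502292-47502491, minus strand).
Polr2a: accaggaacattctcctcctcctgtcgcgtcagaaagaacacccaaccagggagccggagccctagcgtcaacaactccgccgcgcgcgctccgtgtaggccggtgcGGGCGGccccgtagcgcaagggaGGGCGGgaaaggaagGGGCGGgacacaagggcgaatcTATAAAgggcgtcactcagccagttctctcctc
Supt4a: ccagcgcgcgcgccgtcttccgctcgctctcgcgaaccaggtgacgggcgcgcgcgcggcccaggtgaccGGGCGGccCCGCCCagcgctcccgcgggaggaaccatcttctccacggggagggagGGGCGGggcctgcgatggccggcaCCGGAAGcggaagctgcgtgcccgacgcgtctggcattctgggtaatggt
Supt5: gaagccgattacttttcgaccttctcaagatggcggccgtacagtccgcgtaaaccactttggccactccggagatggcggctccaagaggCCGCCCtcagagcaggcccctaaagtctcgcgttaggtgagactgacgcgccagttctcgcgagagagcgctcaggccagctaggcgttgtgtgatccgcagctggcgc
Gtf2a2: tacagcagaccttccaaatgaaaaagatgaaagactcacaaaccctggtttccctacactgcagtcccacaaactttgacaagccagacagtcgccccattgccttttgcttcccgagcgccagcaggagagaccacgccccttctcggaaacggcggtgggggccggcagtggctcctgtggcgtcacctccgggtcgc
Gtf2a1: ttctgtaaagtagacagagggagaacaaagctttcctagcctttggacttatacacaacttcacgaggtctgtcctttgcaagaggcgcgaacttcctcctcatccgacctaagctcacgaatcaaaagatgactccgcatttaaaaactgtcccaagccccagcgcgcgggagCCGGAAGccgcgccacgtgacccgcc
Taf10: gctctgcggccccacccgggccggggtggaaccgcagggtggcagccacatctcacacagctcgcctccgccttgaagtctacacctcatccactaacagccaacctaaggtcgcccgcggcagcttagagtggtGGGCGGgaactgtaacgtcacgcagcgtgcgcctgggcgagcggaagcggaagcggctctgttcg
Taf8: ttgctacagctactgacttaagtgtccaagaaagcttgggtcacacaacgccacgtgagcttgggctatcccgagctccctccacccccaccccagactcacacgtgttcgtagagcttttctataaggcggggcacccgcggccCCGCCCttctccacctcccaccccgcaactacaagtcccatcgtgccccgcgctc

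The Polr2a window held 3 GC boxes and 1 TATA box. In the DSIF pair, Supt4a, which was higher with D as deposited, held 3 GC boxes and 1 ETS site, and Supt5, which was lower, held 1 GC box. Gtf2a2, the higher TFIIA gene as deposited, held no capitals, and Gtf2a1, the lower one, held 1 ETS site. Taf10 and Taf8, partners in TFIID that moved in opposite directions as deposited, held 1 GC box each. RefSeq entries were found for 61 of the 70 members, with 72 starts in all, since some genes have several. Both strands were searched for 5 motifs, none of which contains another, in the same 200-base window for every gene. A GC box stood before 9 of 18 starts (50%) of the 15 matched members called higher in NP-D@M against NP@M as deposited and before 24 of 41 starts (58.5%) of the 35 called lower, against 31.0% of all 32851 starts in the table of promoters. CCGGAAG stood before 5 of 18 (27.8%) and 8 of 41 (19.5%) of the same starts, against 6.29% of all. For CCAAT the shares were 22.2% and 31.7%, against 29.3% of all, and for TATAAA 11.1% and 4.88%, against 9.96%. The NRF1 motif was in 0 of these windows of called members and in 0.728% of all. GC content had a median of 59.5% before starts of the higher members and 61% before those of the lower ones, against 53% of all. All starts include those of genes not tested here, and shares over tested genes alone were not computed.

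The 70 members took a smaller share of the recovered reads with D. The share was 0.0697% to 0.0952% (median 0.0826%) in the 6 libraries with D and 0.315% to 0.364% (median 0.329%) in the 6 without, so the ranges did not overlap. This share does not depend on the authors' scaling. It follows the read totals, with which 61.7% of all tested genes were called lower in NP-D@M against NP@M and 62.4% in NP-D@MP against PBS. A lower share was thus not particular to the members. Each of the 5 complexes shared in it: Supt genes took 0.00416% to 0.00566% with D, against 0.0467% to 0.0577% without, and TAF genes, the least different, took 0.0181% to 0.0281%, against 0.0428% to 0.0550%. Between 18 and 22 members had fewer than 10 reads in a library with D, against 0 or 1 without. In bulk RNA, fewer cells of a type and less RNA per cell cannot be told apart.

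**Figure D1:**
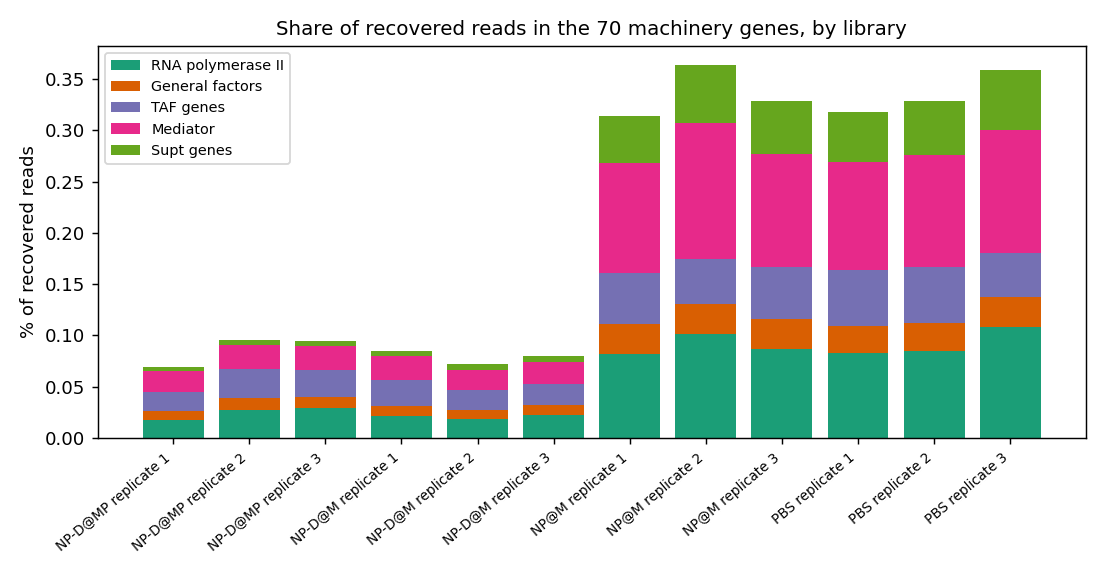
Share of each library's recovered reads (percent, vertical axis) in the 70 machinery genes, stacked by complex, with the 6 libraries with D left of the 6 without. The stacks reach 0.0697% to 0.0952% with D and 0.315% to 0.364% without.

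Lists of cell type markers differed unevenly with D. The summed FPKM of the 12 monocyte and macrophage markers was 36230 to 38553 in NP-D@MP and 30994 to 41593 in NP-D@M libraries, against 2812 to 3479 in NP@M and 2880 to 4113 in PBS libraries. As deposited, 11 of these 12 lay above in every library with D and 1 below; with read totals these were 7 and 3, and the sums were 16342 to 20070 FPKM with D and 6507 to 9005 FPKM without. For the 10 neutrophil markers in the table the sum was 1881 to 2991 in NP-D@MP and 1006 to 1680 in NP-D@M, against 436 to 1016 in NP@M and 919 to 1270 in PBS libraries, so NP-D@M and PBS overlapped. S100a8 and S100a9 made up most of that sum, and of the 10 genes 1 (Prtn3) lay above in every library with D, 2 lay below and 7 overlapped. Those below were Cxcr2, at 0.0417 to 0.926 FPKM with D and 9.37 to 32.5 FPKM without, and Ctsg, at 0.327 to 1.90 FPKM with D and 3.08 to 6.19 FPKM without. With read totals the neutrophil sum was 534 to 1458 FPKM with D and 1009 to 2970 FPKM without, ranges that overlap. Of 6 dendritic cell markers 5 were in the table and summed to 485 to 714 FPKM with D, against 67.6 to 99.5 FPKM without; with read totals these were 236 to 345 and 158 to 230.3 FPKM. Itgax, at 480.4 to 712 FPKM with D and 66.9 to 98.2 FPKM without, was nearly all of that sum. Zbtb46 (0 to 0.0952 FPKM with D, 0.109 to 0.294 FPKM without) and Flt3, listed at 0 in 5 of 6 libraries with D, lay below in every library with D. Epithelial markers, 2 of 6 with Cdh1 in the lead, summed to 18.8 to 33.9 FPKM with D, against 7.06 to 9.20 FPKM without, but to 10.4 to 17.9 and 16.3 to 21.3 FPKM with read totals. The T and NK cell markers, 2 of 7 with Cd4 in the lead, summed to 2.09 to 3.76 FPKM with D, against 0.139 to 0.447 FPKM without, and to 1.16 to 1.82 and 0.327 to 0.979 FPKM with read totals. In the table were also 1 of 4 B cell markers, Ms4a1, at 0 to 0.144 FPKM and overlapping between libraries with and without D, and 0 of 4 erythroid ones. Rbpms had 1.15 to 1.80 FPKM with D and 1.71 to 4.28 FPKM without. The part of cell composition in the machinery results was not tested.

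With D, members fell and rose within every complex as deposited. Of 66 members that passed the floor of 1 FPKM in 3 libraries, 18 were called higher and 41 lower in NP-D@M against NP@M by limma (adjusted p under 0.05), and 18 higher and 44 lower in NP-D@MP against PBS. Among all tested genes 45.2% were called higher and 46% lower in the first comparison, and 45.7% and 45.8% in the second. In all, 91.2% and 91.5% of tested genes were called, so a call by itself says little about a member. Scaled to read totals, 3 members were called higher and 51 lower in NP-D@M against NP@M, against backgrounds of 9.12% and 61.7%, and 2 higher and 52 lower in NP-D@MP against PBS, against 9.01% and 62.4% (70.8% and 71.4% of tested genes in either direction). With all libraries set to equal medians, 21 members were called higher and 35 lower in NP-D@M against NP@M, against backgrounds of 49.4% and 36.9% (86.3% in either direction). In NP-D@MP against PBS these were 21 and 33, against 49.4% and 37.4% (86.8%). Quantile normalization called 15 higher and 33 lower in NP-D@M against NP@M, against 34.7% and 33.9% of all tested genes (68.6% in either direction), and 14 higher and 28 lower in NP-D@MP against PBS, against 34.6% and 33.7% (68.3%). The median log2 difference of the members was -1.005 and -1.03 as deposited, where all tested genes had 0.16 and 0.13. With read totals it was -2.16 and -2.23, where all tested genes had -1.47 and -1.48.

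The floor itself shaped these counts. Of the 66 members, 36 passed it in libraries with D and in libraries without, 30 passed it only in libraries without D, and 0 passed it only with D. The floor let the 30 in through the libraries without D, so their direction, and with it the small p-values of members such as Taf5l and Med17, is no support for a fall with D. The 30 were Polr2b and Polr2h; Gtf2a1, Gtf2e1, Gtf2h3 and Gtf2h4; Taf1, Taf1b, Taf1c, Taf2, Taf3, Taf4, Taf5l, Taf7 and Taf8; Med1, Med4, Med6, Med13, Med13l, Med17, Med18, Med19, Med20, Med23, Med26, Med27 and Med31; and Supt16 and Supt7l. Among the 36, 18 were called higher and 13 lower in NP-D@M against NP@M (50% and 36.1%), where 62.5% and 26.7% of the 4920 genes that passed in both kinds were so called. Scaled to read totals, 3 of the 36 were higher and 21 lower (8.33% and 58.3%, against 11.5% and 50.8%). Over all 70 members with no floor, every NP-D@M library lay below every NP@M library for 47 members and above for 21, where 48.4% and 38.7% of all 11669 genes did so. With read totals the counts were 56 and 4, against 63.7% and 10.7% of all genes.

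The 2 comparisons with D share no library. Called higher in both were 17 of the 18 and 18 members (94.4% of each), and called lower in both were 41, which is 100% of the 41 and 93.2% of the 44. Among all tested genes these shares were 94.5% and 93.4% for higher, and 95.9% and 96.3% for lower calls. The members' shares lay near those of all genes.

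**Figure D2:**
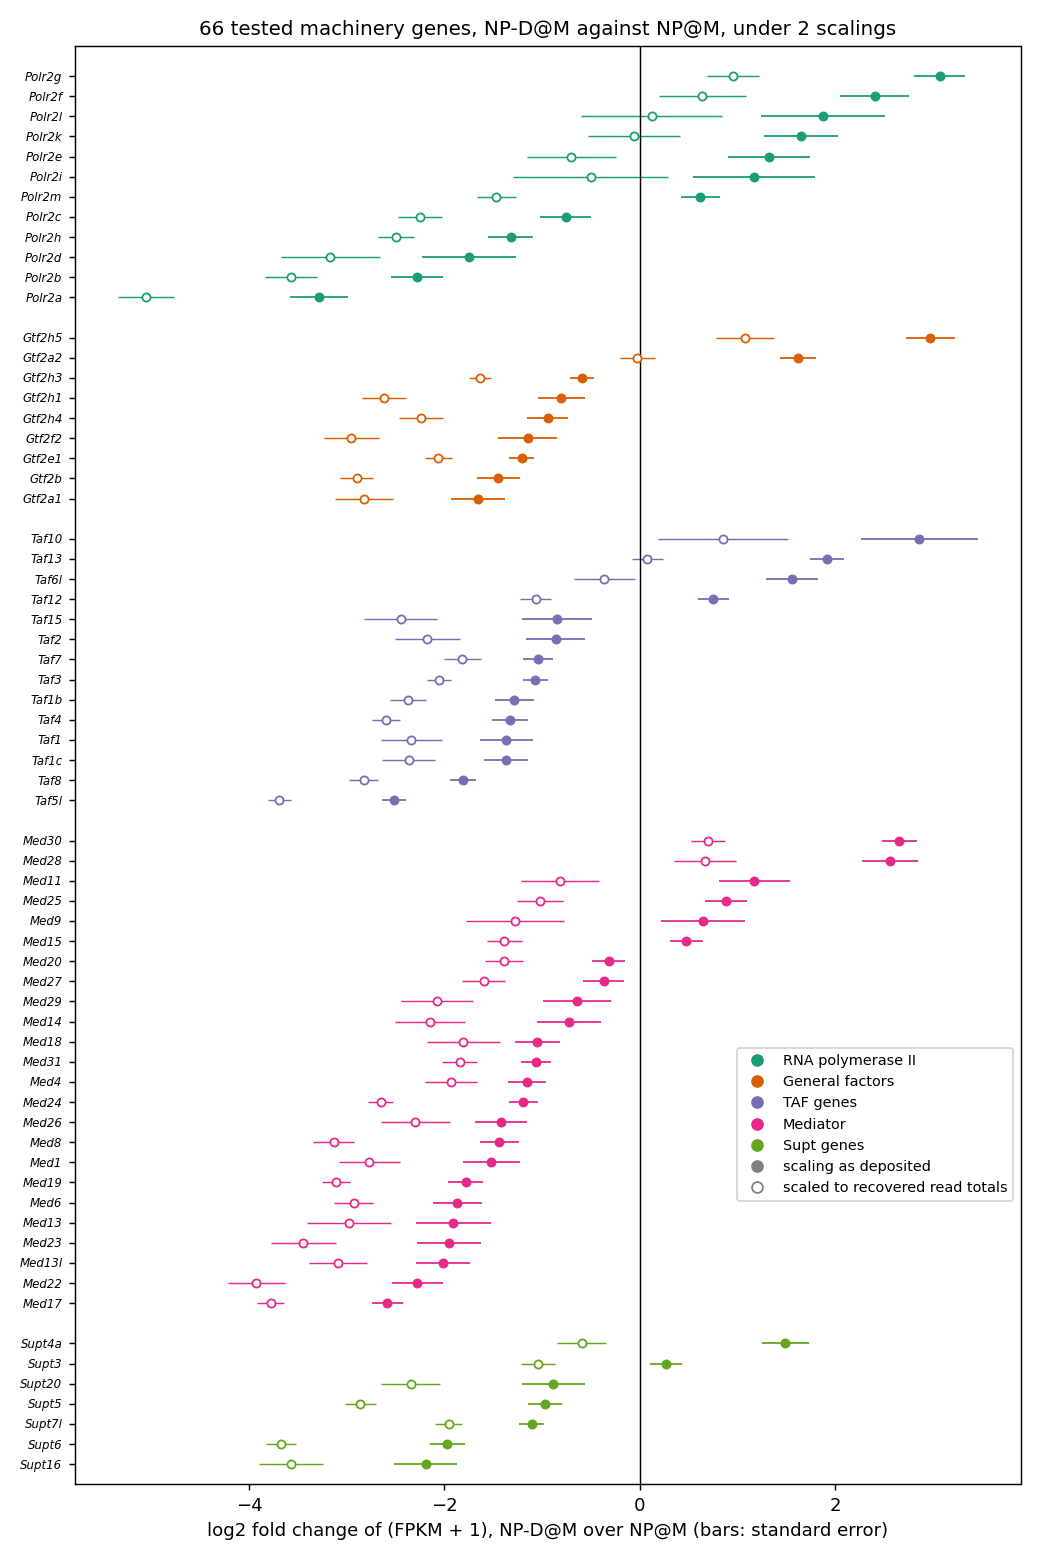
Log2 fold change of FPKM + 1 in NP-D@M over NP@M (horizontal axis; bars are standard errors) for the 66 tested machinery genes, grouped by complex, as deposited (filled) and scaled to recovered read totals (open). Polr2a lies farthest left under both scalings and Polr2g farthest right as deposited; 18 filled points called higher become 3 open ones.

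Among the polymerase subunits, both genes of the catalytic core, Polr2a and Polr2b, were lower with D. Of the smaller subunits, Polr2e, Polr2f, Polr2g, Polr2k and Polr2l were called higher as deposited, and Polr2c, Polr2d and Polr2h lower. With read totals Polr2g alone of these was called higher. Of 12 tested polymerase genes 6 were called higher and 5 lower in NP-D@M against NP@M, beside 45.2% and 46% of all tested genes. Of the lower ones, Polr2b and Polr2h had passed the floor only without D, so their direction is no support for a fall. Polr2a had 2.96, 2.31 and 2.43 FPKM in NP-D@MP and 1.96, 2.33 and 2.26 FPKM in NP-D@M libraries, against 22.6, 43.7 and 27.0 FPKM in NP@M and 21.6, 25.8 and 48.0 FPKM in PBS libraries. Polr2a, at GRCm38 chromosome 11, 69733997 to 69758637, encodes the largest subunit with the tail that CDKs phosphorylate. All 6 libraries with D lay below all 6 without. Its log2 difference was -3.28 ± 0.30 in NP-D@M against NP@M (SE; adjusted p = 1.94e-06) and -3.12 ± 0.30 in NP-D@MP against PBS (adjusted p = 2.75e-06), and -5.05 and -4.95 with read totals. Within a library it ranked above 59.6% to 65.1% of the table's genes with D, against 90.8% to 96.6% without, a measure that no scaling changes.

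Polr2b had 0.417, 0.342 and 0.381 FPKM in NP-D@MP and 0.570, 0.273 and 0.290 FPKM in NP-D@M libraries, against 4.63, 7.56 and 5.18 FPKM in NP@M and 4.61, 5.44 and 11.1 FPKM in PBS libraries. Polr2b encodes the second-largest subunit, which shares the active site, and lies at GRCm38 chromosome 5, 77310147 to 77349324. It had passed the floor only without D. The groups with and without D did not overlap, and the log2 difference was -2.28 ± 0.27 in NP-D@M against NP@M (SE; adjusted p = 1.31e-05) and -2.46 ± 0.27 in NP-D@MP against PBS (adjusted p = 7.5e-06). The proportion of the core genes to each other did not separate the groups: Polr2b made up 10.5% to 22.5% of their summed FPKM with D and 14.7% to 18.8% without, ranges that overlap. Polr2c had 0.609, 1.56 and 1.43 FPKM in NP-D@MP and 2.07, 1.92 and 0.708 FPKM in NP-D@M libraries, against 3.34, 3.16 and 3.10 FPKM in NP@M and 3.88, 2.38 and 2.37 FPKM in PBS libraries. Polr2c, needed to assemble the core, was called lower in both comparisons with D (log2 differences -0.76 and -0.82), but not without NP-D@M replicate 3 (-0.49, adjusted p = 0.0769) or without NP-D@MP replicate 1 (-0.61, adjusted p = 0.0501). Polr2h had 0.152, 0.325 and 0.590 FPKM in NP-D@MP and 0.920, 0 and 0.523 FPKM in NP-D@M libraries, against 2.46, 2.69 and 2.59 FPKM in NP@M and 3.39, 2.47 and 2.39 FPKM in PBS libraries. Polr2h, shared by polymerases I, II and III, was called lower too (-1.32 and -1.47), with 0 to 12 reads in libraries with D.

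The stalk of the polymerase, a pair of subunits that binds the emerging RNA, split. Polr2g had 128, 263 and 238 FPKM in NP-D@MP and 170.2, 149 and 209 FPKM in NP-D@M libraries, against 20.3, 18.0 and 21.5 FPKM in NP@M and 25.5, 25.1 and 20.7 FPKM in PBS libraries. Polr2d had 0.718, 2.57 and 1.20 FPKM in NP-D@MP and 0.605, 1.73 and 0.472 FPKM in NP-D@M libraries, against 9.18, 1.99 and 7.06 FPKM in NP@M and 9.70, 7.11 and 3.44 FPKM in PBS libraries. Polr2g was higher in every library with D. Polr2d was lower with D within each comparison, and NP@M replicate 2, at 1.99 FPKM, lay far under its mates. Polr2g had a log2 difference of 3.07 ± 0.26 in NP-D@M against NP@M (SE; adjusted p = 1.25e-06) and 3.03 ± 0.26 in NP-D@MP against PBS (adjusted p = 1.37e-06), and it was 1 of the members still called higher with read totals (0.95 and 0.83, adjusted p = 0.00717 and 0.0148). Polr2d had -1.75 ± 0.48 in NP-D@M against NP@M (SE; adjusted p = 0.00539) and -1.61 ± 0.48 in NP-D@MP against PBS (adjusted p = 0.0084), on 4 to 20 reads per library with D. Polr2g made up 98.9% to 99.8% of the pair's summed FPKM with D, against 68.8% to 90.1% in NP@M and 72.5% to 85.7% in PBS libraries. By rank within a library Polr2g lay above 94.7% to 96.2% of genes with D and above 90.5% to 92.5% without.

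Of the subunits that all 3 nuclear polymerases share, 4 of 5 were called higher as deposited and 0 with read totals. In NP-D@M against NP@M 45.2% of all tested genes were called higher as deposited and 9.12% with read totals. Of the genes that passed the floor in both kinds, these shares were 62.5% and 11.5%. Polr2f had 18.4, 24.9 and 24.8 FPKM in NP-D@MP and 17.0, 15.7 and 15.7 FPKM in NP-D@M libraries, against 3.78, 0.723 and 3.10 FPKM in NP@M and 4.86, 4.13 and 2.16 FPKM in PBS libraries. Polr2l had 15.2, 22.2 and 69.3 FPKM in NP-D@MP and 8.76, 15.3 and 13.8 FPKM in NP-D@M libraries, against 5.09, 0.637 and 3.77 FPKM in NP@M and 6.29, 4.61 and 1.23 FPKM in PBS libraries. Both were lowest in NP@M replicate 2, and Polr2l was highest in NP-D@MP replicate 3. Their log2 differences were 2.40 ± 0.35 and 1.88 ± 0.63 in NP-D@M against NP@M (SE; adjusted p = 7.49e-05 and 0.0154), and with read totals 0.64 and 0.12 (adjusted p = 0.22 and 0.891). Without NP@M replicate 2 Polr2l was not called in that comparison as deposited (1.30, adjusted p = 0.0663), and in NP-D@MP against PBS, where it had 2.73 ± 0.63, leaving out NP-D@MP replicate 3 gave 2.11 (adjusted p = 0.00812). In NP-D@M against NP@M Polr2k had 1.65 and Polr2e 1.32 as deposited, and -0.06 and -0.70 with read totals, so both turned direction and neither was then called. Against PBS, NP-D@MP had 1.92 for Polr2k and 1.82 for Polr2e, and with read totals 0.11 and -0.28, neither called, so Polr2e alone of the pair turned there. Polr2i had 7.55, 13.8 and 13.8 FPKM in NP-D@MP and 8.40, 6.10 and 8.84 FPKM in NP-D@M libraries, against 5.60, 0.352 and 5.52 FPKM in NP@M and 6.88, 5.48 and 1.04 FPKM in PBS libraries. Polr2i, a small subunit tied to proofreading of the transcript, was at 0.352 FPKM in NP@M replicate 2 beside 5.60 and 5.52 FPKM in its mates, and was not called (1.16 ± 0.63, SE; adjusted p = 0.0947). In NP-D@MP against PBS it had 1.39 ± 0.63 (adjusted p = 0.0526). Without both libraries that stood apart it had 0.41 (adjusted p = 0.148) in NP-D@M against NP@M and was called in NP-D@MP against PBS (0.79, adjusted p = 0.0133). It was called there as well without PBS replicate 1 (1.76, adjusted p = 0.0305) or without NP-D@MP replicate 1 (1.65, adjusted p = 0.0487). Polr2m, which encodes Gdown1, a protein that makes the polymerase dependent on Mediator, stayed within 26.4 to 36.0 FPKM with D and 15.6 to 23.7 FPKM without, and its direction in NP-D@M against NP@M depended on the scaling (0.62 as deposited, -1.47 with read totals). In NP-D@MP against PBS it was not called as deposited (0.44 ± 0.20, SE; adjusted p = 0.0509).

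**Figure D3:**
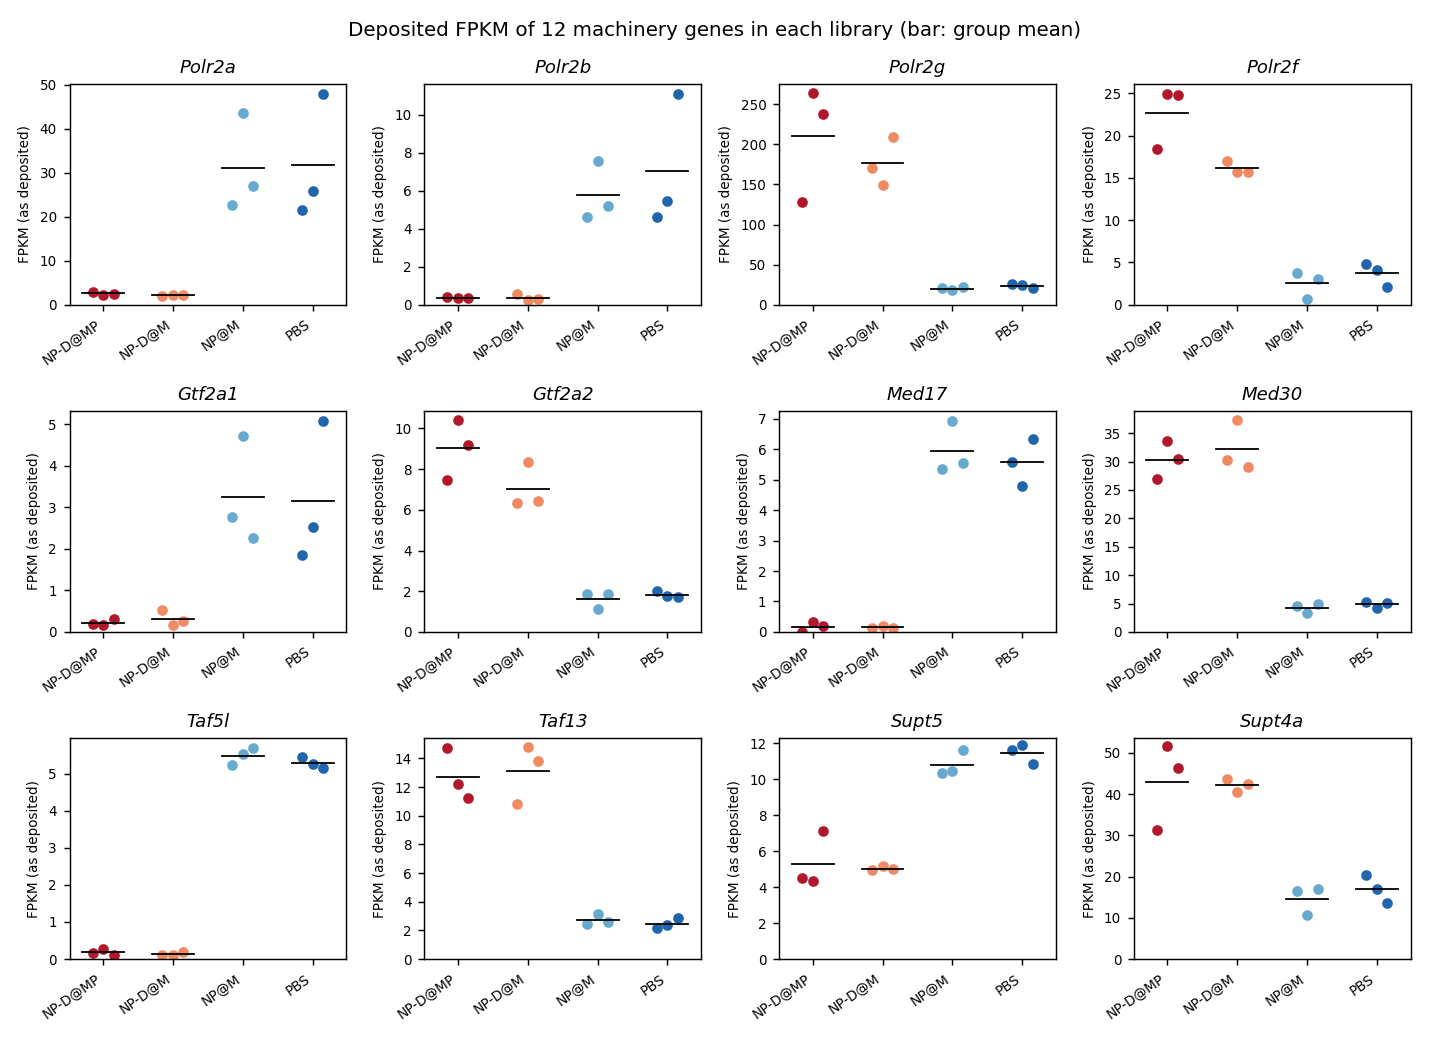
Deposited FPKM (vertical axis, from 0) of 12 machinery genes in each library, with groups NP-D@MP, NP-D@M, NP@M and PBS from left to right and a bar at each group mean. Polr2a, Polr2b, Gtf2a1, Med17, Taf5l and Supt5 are lower in every library with D, and the other 6 are higher there as deposited; scaled to read totals, Supt4a and Gtf2a2 turn direction in NP-D@M against NP@M.

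Of 9 tested general factors 7 were called lower and 2 higher as deposited, and with read totals 7 lower and 1 higher, in both comparisons with D. Of the 7 called lower, 4 had passed the floor only without D, and of the 5 that passed in both kinds 3 were lower and 2 higher. Among all tested genes, 46% were called lower and 45.2% higher in NP-D@M against NP@M as deposited, and 61.7% and 9.12% with read totals. Among all genes that passed in both kinds, 26.7% were lower and 62.5% higher there as deposited. TFIIA, which steadies the TATA-binding protein on DNA, has 2 genes here that moved apart as deposited. Of these, Gtf2a1 had passed the floor only without D. Gtf2a1 had 0.202, 0.157 and 0.306 FPKM in NP-D@MP and 0.538, 0.163 and 0.253 FPKM in NP-D@M libraries, against 2.76, 4.70 and 2.27 FPKM in NP@M and 1.85, 2.52 and 5.07 FPKM in PBS libraries. Gtf2a2 had 7.46, 10.4 and 9.20 FPKM in NP-D@MP and 6.35, 8.35 and 6.43 FPKM in NP-D@M libraries, against 1.87, 1.14 and 1.86 FPKM in NP@M and 2.02, 1.77 and 1.70 FPKM in PBS libraries. Every library with D was lower for Gtf2a1 and higher for Gtf2a2. Gtf2a1 had a log2 difference of -1.66 ± 0.28 in NP-D@M against NP@M (SE; adjusted p = 0.000195) and -1.69 ± 0.28 in NP-D@MP against PBS (adjusted p = 0.000165). Gtf2a2 had 1.62 ± 0.18 in NP-D@M against NP@M (SE; adjusted p = 9.04e-06) and 1.81 ± 0.18 in NP-D@MP against PBS (adjusted p = 3.85e-06), but -0.03 and 0.04 with read totals, where it was not called. Gtf2a2 made up 92.2% to 98.5% of the pair's summed FPKM with D, against 19.5% to 45.1% in NP@M and 25.1% to 52.1% in PBS libraries.

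Gtf2b had 0.324, 1.20 and 1.44 FPKM in NP-D@MP and 1.18, 0.834 and 0.958 FPKM in NP-D@M libraries, against 4.39, 3.80 and 5.15 FPKM in NP@M and 4.28, 4.54 and 4.51 FPKM in PBS libraries. Gtf2b, or TFIIB, which links the promoter to the polymerase, lies at GRCm38 chromosome 3, 142765045 to 142783606. It was lower in every library with D, with log2 differences of -1.45 ± 0.22 and -1.50 ± 0.22 (SE; adjusted p = 8.09e-05 and 6.17e-05). Gtf2e1 of TFIIE, which had passed the floor only without D, had 1 to 8 reads with D and was called lower (-1.21 and -1.19). Gtf2f2 had 1.25, 3.18 and 2.08 FPKM in NP-D@MP and 6.15, 2.35 and 3.15 FPKM in NP-D@M libraries, against 10.2, 6.92 and 11.1 FPKM in NP@M and 9.95, 8.94 and 8.52 FPKM in PBS libraries. Gtf2f2 of TFIIF, which escorts the polymerase to the promoter, was lower with D in every library, at -1.15 ± 0.30 and -1.72 ± 0.30 on the log2 scale (SE; adjusted p = 0.00406 and 0.000272).

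TFIIH melts promoter DNA and also serves nucleotide excision repair. Gtf2h5 had 32.8, 45.6 and 43.7 FPKM in NP-D@MP and 31.3, 30.2 and 32.5 FPKM in NP-D@M libraries, against 4.02, 1.90 and 3.80 FPKM in NP@M and 4.13, 3.61 and 2.09 FPKM in PBS libraries. Gtf2h5, its smallest subunit, was higher in every library with D, at 2.97 ± 0.25 in NP-D@M against NP@M (SE; adjusted p = 1.34e-06) and 3.30 ± 0.25 in NP-D@MP against PBS (adjusted p = 6.59e-07). It was called higher with read totals as well (1.07 and 1.32; adjusted p = 0.00713 and 0.00192). Gtf2h1 had 3.72, 4.11 and 3.88 FPKM in NP-D@MP and 2.83, 3.93 and 5.48 FPKM in NP-D@M libraries, against 7.23, 9.59 and 6.46 FPKM in NP@M and 5.19, 6.25 and 9.41 FPKM in PBS libraries. Gtf2h1, a core subunit of the same factor, was called lower (-0.80 and -0.66; adjusted p = 0.00851 and 0.0219), though NP-D@M replicate 3 lay above PBS replicate 1. In NP-D@MP against PBS the call was lost without PBS replicate 3 (-0.45, adjusted p = 0.0835), without both libraries that stood apart (-0.45, adjusted p = 0.0579) and without NP-D@MP replicate 1 (-0.64, adjusted p = 0.054). Gtf2h4 and Gtf2h3, core subunits too, were called lower in both comparisons, at -0.94 and -0.83 for Gtf2h4 and -0.59 and -0.42 for Gtf2h3. Quantile normalization turned Gtf2h3 to 0.17 and 0.29 (adjusted p = 0.25 and 0.0662). Both genes had passed the floor only without D. Gtf2h2 was not tested, at 0.0242 to 0.196 FPKM with D and 0.649 to 1.18 FPKM without.

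Of 14 tested TAF genes 10 were called lower and 4 higher as deposited in both comparisons with D, and 11 lower and 0 higher with read totals. Of the 10 called lower 9 had passed the floor only without D. Of the 5 that passed in both kinds 1 was lower and 4 higher. Of all genes that passed in both kinds, 26.7% were lower and 62.5% higher in NP-D@M against NP@M. Of all tested genes 46% were lower and 45.2% higher there. With read totals the background in NP-D@M against NP@M was 61.7% lower and 9.12% higher. Taf5l had 0.160, 0.275 and 0.107 FPKM in NP-D@MP and 0.0972, 0.107 and 0.189 FPKM in NP-D@M libraries, against 5.23, 5.52 and 5.68 FPKM in NP@M and 5.45, 5.26 and 5.16 FPKM in PBS libraries. Taf5l belongs to SAGA, a coactivator that shares TAFs with TFIID, and is 1 of those that passed only without D. It stayed within 5.16 to 5.68 FPKM without D, the 2 libraries that stood apart included, and had log2 differences of -2.52 ± 0.12 in NP-D@M against NP@M (SE; adjusted p = 7.88e-08) and -2.42 ± 0.12 in NP-D@MP against PBS (adjusted p = 8.12e-08). Taf6l had 16.6, 16.5 and 16.9 FPKM in NP-D@MP and 17.7, 16.3 and 12.4 FPKM in NP-D@M libraries, against 5.61, 2.94 and 5.53 FPKM in NP@M and 5.85, 4.78 and 2.59 FPKM in PBS libraries. Taf6l, its neighbour in SAGA, was higher in every library with D as deposited (1.56 and 1.76) but -0.37 and -0.22 with read totals, not called.

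In TFIID, TAF pairs that fold together moved apart as deposited. Their lower genes, Taf8 and Taf4, had passed the floor only without D, so the direction of these is no support for a split. Taf10 had 36.0, 83.5 and 83.1 FPKM in NP-D@MP and 57.3, 46.8 and 52.6 FPKM in NP-D@M libraries, against 10.5, 2.91 and 7.70 FPKM in NP@M and 14.7, 12.03 and 2.09 FPKM in PBS libraries. Taf8 had 0.101, 0.108 and 0.196 FPKM in NP-D@MP and 0, 0.112 and 0.0497 FPKM in NP-D@M libraries, against 2.76, 2.36 and 2.98 FPKM in NP@M and 2.74, 2.68 and 2.05 FPKM in PBS libraries. Taf10 was higher with D in every library, yet 2.91 and 2.09 FPKM in the libraries that stood apart lay far under their mates. Its log2 difference was 2.86 ± 0.59 in NP-D@M against NP@M (SE; adjusted p = 0.000888) and 2.90 ± 0.59 in NP-D@MP against PBS (adjusted p = 0.000791), and 0.85 and 0.82 with read totals, not called. Without PBS replicate 3 the value against PBS was 2.16 (adjusted p = 0.000993). Taf8 had 0 to 7 reads per library with D and -1.81 ± 0.13 in NP-D@M against NP@M (SE; adjusted p = 3.71e-07) and -1.62 ± 0.13 in NP-D@MP against PBS (adjusted p = 7.99e-07). Taf10 made up 99.7% to 100% of the pair's FPKM with D, against 55.2% to 79.1% in NP@M and 50.5% to 84.3% in PBS libraries. Taf12, which pairs with Taf4, made up 86.5% to 97.0% of that pair with D, against 54.2% to 57.1% in NP@M and 50.9% to 57.6% in PBS libraries. Taf4 was called lower under both scalings (-1.33 and -1.48 as deposited). Taf12 was called higher as deposited (0.75 and 0.79) and lower with read totals (-1.07 and -1.07).

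Taf1 had 0.388, 0.330 and 0.149 FPKM in NP-D@MP and 0.108, 0.104 and 0.171 FPKM in NP-D@M libraries, against 1.33, 3.24 and 1.48 FPKM in NP@M and 1.25, 1.78 and 3.65 FPKM in PBS libraries. Taf1, the largest TFIID subunit and a binder of acetylated histones, was lower in every library with D, at -1.37 ± 0.27 and -1.26 ± 0.27 (SE; adjusted p = 0.000704 and 0.00119). Taf1, and Taf1b, Taf1c, Taf2, Taf3 and Taf7 below, had passed the floor only without D. The direction and p-values of these genes are thus no support for a fall. Taf13 had 14.7, 12.2 and 11.2 FPKM in NP-D@MP and 10.8, 14.8 and 13.8 FPKM in NP-D@M libraries, against 2.48, 3.14 and 2.61 FPKM in NP@M and 2.16, 2.37 and 2.90 FPKM in PBS libraries. Taf13, a histone fold subunit that pairs with Taf11, was higher with D in every library as deposited (1.91 ± 0.17 and 1.98 ± 0.17, SE; adjusted p = 1.88e-06 and 1.46e-06) and near 0 with read totals (0.08 and 0.11). Taf1c and Taf1b, which serve RNA polymerase I, were called lower as well: Taf1c had -1.37 and -1.20, and Taf1b -1.29 and -1.16. Taf3, a reader of promoter histone marks, and Taf2, which contacts promoter DNA, were lower in every library with D: Taf3 had -1.07 and -0.74, and Taf2 -0.86 and -1.03. Without NP@M replicate 2 Taf2 was not called in NP-D@M against NP@M (-0.65, adjusted p = 0.0713). Taf15, an RNA-binding protein found with part of TFIID, was called lower (-0.85 and -0.81; adjusted p = 0.0397 and 0.0478) on overlapping values, 1.78 to 4.88 FPKM with D and 2.41 to 7.41 FPKM without. Leaving out any of 5 libraries ended that call in NP-D@M against NP@M, and any of 4 in NP-D@MP against PBS. Taf7, an inhibitor of Taf1, had 0 reads in all 3 NP-D@MP libraries and in 2 of 3 NP-D@M libraries, against 0.792 to 1.55 FPKM without D. In NP-D@MP it was at least 10.2-fold lower than in PBS as deposited and at least 47.7-fold with read totals, for a floor of 3 reads per library. Taf5, the scaffold gene of TFIID, was not tested, at 0 to 0.429 FPKM with D and 0.272 to 1.20 FPKM without.

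**Figure D4:**
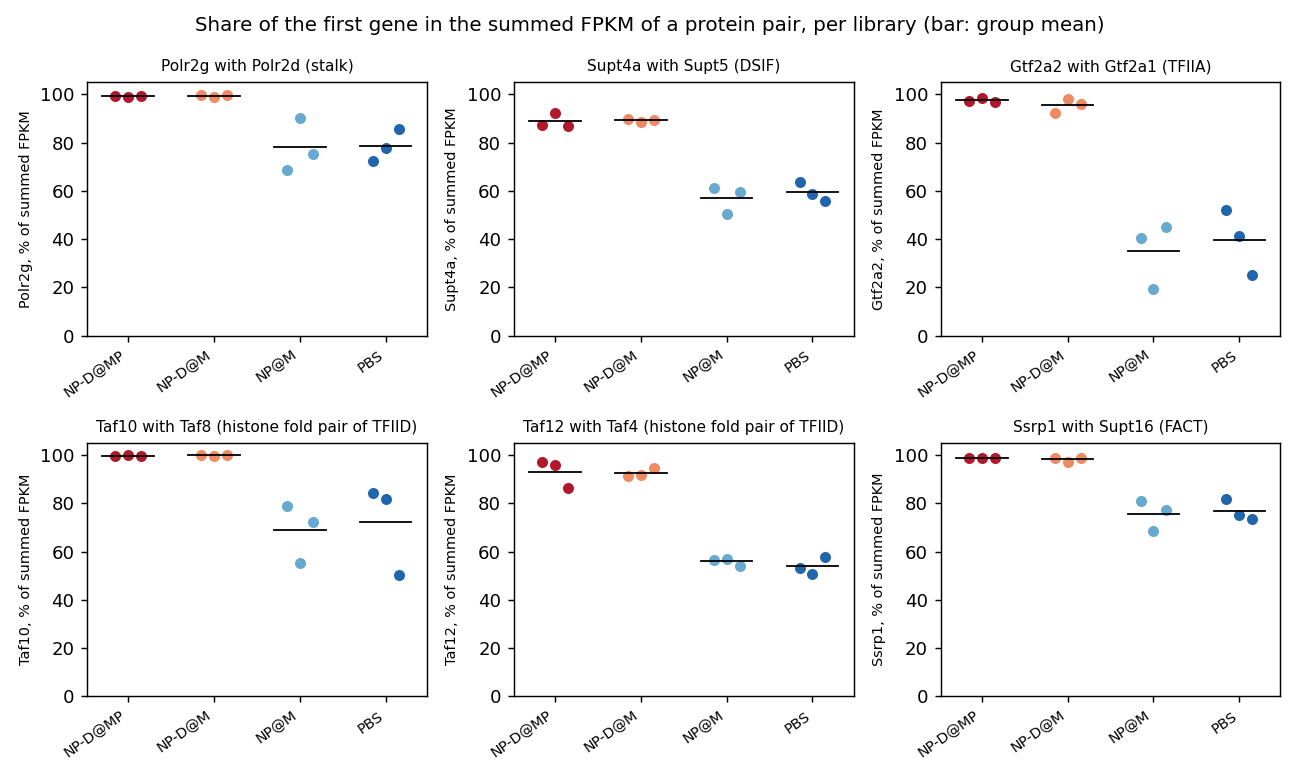
Share of the first gene in the summed FPKM of a pair of partner proteins (percent, vertical axis from 0) in each library, with a bar at each group mean and groups NP-D@MP, NP-D@M, NP@M and PBS from left to right. The share does not depend on scaling; in the 6 pairs it lies between 86.5% and 100% in every library with D, and for the Supt4a pair at 50.3% to 63.6% without.

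Mediator had 24 tested genes, of which 14 were called lower and 5 higher in NP-D@M against NP@M as deposited, and 17 lower and 6 higher in NP-D@MP against PBS. With read totals these were 21 lower and 1 higher, and 21 lower and 0 higher, beside 61.7% and 9.12%, and 62.4% and 9.01%, of all tested genes. Of those called lower as deposited 11 and 12 had passed the floor only without D. Of the 11 genes that passed in both kinds 3 were lower and 5 higher in NP-D@M against NP@M, and 5 lower and 6 higher in NP-D@MP against PBS. Of all genes that passed in both kinds, 26.7% were lower and 62.5% higher in the first comparison, and 26.8% and 63.0% in the second. Of all tested genes these shares were 46% and 45.2%, and 45.8% and 45.7%. The head module touches the polymerase. Med17 had 0, 0.319 and 0.210 FPKM in NP-D@MP and 0.137, 0.181 and 0.133 FPKM in NP-D@M libraries, against 5.34, 6.92 and 5.56 FPKM in NP@M and 5.59, 4.79 and 6.33 FPKM in PBS libraries. Med17, its central subunit, which passed the floor only without D, lies at GRCm38 chromosome 9, 15260351 to 15279931 and was lower in every library with D, at -2.59 ± 0.16 in NP-D@M against NP@M (SE; adjusted p = 1.55e-07) and -2.48 ± 0.16 in NP-D@MP against PBS (adjusted p = 1.96e-07). Med22 had 1.58, 2.21 and 1.55 FPKM in NP-D@MP and 1.34, 1.69 and 1.53 FPKM in NP-D@M libraries, against 11.2, 10.2 and 12.3 FPKM in NP@M and 12.4, 10.6 and 4.92 FPKM in PBS libraries. Med22 was lower too (-2.28 and -1.82; adjusted p = 1.2e-05 and 6.73e-05). Med18 had 0 reads in all 6 libraries with D, against 0.904 to 1.19 FPKM in NP@M and 0.0475 to 1.40 FPKM in PBS libraries. That is at least 6.02-fold lower in NP-D@M than in NP@M as deposited, and at least 27.1-fold with read totals. In NP-D@MP against PBS the bounds were 4.18-fold and 20.1-fold for the mean of the PBS libraries. They do not hold for PBS replicate 3, whose 0.0475 FPKM lay under the 0.182 FPKM that 3 reads are worth. Med18 had passed the floor of 1 FPKM only without D. Med6, which had passed the floor only without D, and Med8 were called lower: Med6 had -1.87 and -1.50, and Med8 -1.44 and -1.57. Med20 was not called in either (-0.32 and -0.23; adjusted p = 0.0904 and 0.215), but was called lower without both libraries that stood apart (-0.43 and -0.35; adjusted p = 0.0133 and 0.0357) and higher with quantile normalization (0.40 and 0.43; adjusted p = 0.0222 and 0.0154). Med11 was called higher as deposited (1.17 and 1.00) but had -0.82 and -1.07 with read totals. Its call in NP-D@MP against PBS was lost without PBS replicate 3 (0.70, adjusted p = 0.0838), and also without NP-D@MP replicate 2 or 3 (adjusted p = 0.0773 and 0.061).

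Med30 and Med28, subunits found in animals but not in budding yeast, went the other way as deposited. Med30 had 26.9, 33.7 and 30.5 FPKM in NP-D@MP and 30.3, 37.2 and 29.0 FPKM in NP-D@M libraries, against 4.54, 3.36 and 4.98 FPKM in NP@M and 5.27, 4.25 and 5.07 FPKM in PBS libraries. Med28 had 18.7, 34.0 and 28.6 FPKM in NP-D@MP and 25.7, 22.8 and 23.7 FPKM in NP-D@M libraries, against 4.52, 1.88 and 3.80 FPKM in NP@M and 5.24, 4.51 and 2.99 FPKM in PBS libraries. Every library with D was higher for both genes. Med30 had log2 differences of 2.65 ± 0.18 in NP-D@M against NP@M (SE; adjusted p = 2.62e-07) and 2.42 ± 0.18 in NP-D@MP against PBS (adjusted p = 4.75e-07), and with read totals 0.69 (adjusted p = 0.00357) and 0.37 (adjusted p = 0.0725). Med28 had 2.56 ± 0.29 in NP-D@M against NP@M (SE; adjusted p = 9.11e-06) and 2.41 ± 0.29 in NP-D@MP against PBS (adjusted p = 1.43e-05), and 0.67 and 0.40 with read totals, not called. Med27 and Med29, which link to the tail, had -0.37 and -0.64 in NP-D@M against NP@M, not called, and were called lower in NP-D@MP against PBS (-0.54 and -1.07; adjusted p = 0.0286 and 0.0131). Without both libraries that stood apart they were called in NP-D@M against NP@M too (-0.56 and -0.99; adjusted p = 0.0144 and 0.00975). The call of Med27 against PBS was lost without PBS replicate 1, PBS replicate 2 or NP-D@MP replicate 1 (adjusted p = 0.0847, 0.0647 and 0.108), and that of Med29 without NP-D@MP replicate 2 (adjusted p = 0.0527). Med27 had passed the floor only without D.

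In the middle module, 5 of 6 tested genes were called lower in NP-D@M against NP@M as deposited and 6 of 6 with read totals. The backgrounds were 46% and 61.7% of all tested genes. The 5, Med1, Med4, Med19, Med26 and Med31, had passed the floor only without D, so their direction is no support for a fall. Med9 passed in both kinds. Med1 had 0.431, 0.869 and 0.537 FPKM in NP-D@MP and 0.476, 0.495 and 0.489 FPKM in NP-D@M libraries, against 2.32, 5.89 and 2.40 FPKM in NP@M and 2.01, 2.57 and 4.48 FPKM in PBS libraries. Med1, the contact for nuclear receptors, was lower in every library with D, and its 5.89 and 4.48 FPKM in the libraries that stood apart were the highest of all. It had -1.52 ± 0.29 and -1.28 ± 0.29 (SE; adjusted p = 0.0005 and 0.00159). Med26, which links Mediator to elongation factors, had 0 to 3 reads with D and -1.42 and -1.43. Med4 had 0 to 3 reads and Med31 0 to 4 reads with D, and both were called lower (-1.15 and -1.06 in NP-D@M against NP@M). Med19 was called lower (-1.78 and -1.92). Med9 was not called in NP-D@M against NP@M (0.64) and called higher in NP-D@MP against PBS (1.18) as deposited, with -1.27 and -0.78 for read totals. That call was lost without PBS replicate 3 (0.59, adjusted p = 0.0576), NP-D@MP replicate 2 or NP-D@MP replicate 3 (adjusted p = 0.0514 and 0.0675). Med7 was not tested, at 0 to 0.161 FPKM with D and 0.389 to 0.870 FPKM without.

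Med14 had 0.744, 0.966 and 0.580 FPKM in NP-D@MP and 1.19, 1.53 and 1.17 FPKM in NP-D@M libraries, against 1.84, 5.02 and 2.15 FPKM in NP@M and 1.59, 1.98 and 4.84 FPKM in PBS libraries. Med14, the backbone that joins the modules, was not called in NP-D@M against NP@M as deposited (-0.72 ± 0.33, SE; adjusted p = 0.0537) and was called lower in NP-D@MP against PBS (-1.02 ± 0.33; adjusted p = 0.0119). It was called in the first comparison without NP@M replicate 1 (-0.93, adjusted p = 0.0305) and without both libraries that stood apart (-0.39, adjusted p = 0.0228). Tail genes receive activators. Med23 had 1.30, 0.844 and 0.741 FPKM in NP-D@MP and 0.985, 1.07 and 0.792 FPKM in NP-D@M libraries, against 5.01, 10.7 and 5.11 FPKM in NP@M and 4.01, 4.97 and 10.7 FPKM in PBS libraries. Med23 was lower in every library with D (-1.96 and -1.85), and so was Med24 (-1.20 and -0.76). Of these, Med23 had passed the floor only without D, so its direction is no support for a fall. Med25 and Med15 were called higher as deposited, at 0.88 and 0.48 in NP-D@M against NP@M, and called lower with read totals, at -1.02 and -1.39. Med15 was not called as deposited without NP@M replicate 2 (0.33, adjusted p = 0.0731), nor in NP-D@MP against PBS without PBS replicate 1 or 3 or NP-D@MP replicate 1 or 3 (adjusted p = 0.052, 0.0853, 0.0855 and 0.0688). The kinase module holds CDK8 or CDK19 and is tethered by Med13 or Med13l. Med13 had 0.232, 0.181 and 0.129 FPKM in NP-D@MP and 0.117, 0.165 and 0.0832 FPKM in NP-D@M libraries, against 2.18, 6.61 and 2.08 FPKM in NP@M and 1.78, 2.61 and 6.68 FPKM in PBS libraries. Med13 and Med13l were lower in every library with D: Med13 had -1.91 and -1.85, and Med13l -2.01 and -1.99. Both had passed the floor only without D, so their direction is no support for a fall. Med13 reached 6.61 and 6.68 FPKM in the libraries that stood apart, where their mates had 1.78 to 2.61 FPKM. Med12l of the same module was not tested, at 0 to 0.0598 FPKM with D and 0.148 to 0.466 FPKM without.

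The Supt genes held 5 called lower and 1 higher of 7 as deposited in both comparisons with D, and 6 and 7 lower and 0 higher with read totals. Of the 5 called lower, 2 had passed the floor only without D, and the backgrounds were 46% lower and 45.2% higher as deposited and 61.7% and 9.12% with read totals in NP-D@M against NP@M. DSIF, a pair of proteins that holds the polymerase in its pause and later aids elongation, split like the pairs above. Supt4a had 31.2, 51.6 and 46.4 FPKM in NP-D@MP and 43.7, 40.5 and 42.4 FPKM in NP-D@M libraries, against 16.4, 10.6 and 17.0 FPKM in NP@M and 20.3, 16.9 and 13.7 FPKM in PBS libraries. Supt5 had 4.48, 4.37 and 7.10 FPKM in NP-D@MP and 4.94, 5.15 and 5.01 FPKM in NP-D@M libraries, against 10.4, 10.5 and 11.6 FPKM in NP@M and 11.6, 11.9 and 10.8 FPKM in PBS libraries. Supt4a was higher and Supt5 lower in every library with D as deposited. Supt5 had -0.97 ± 0.17 in NP-D@M against NP@M (SE; adjusted p = 0.00031) and -1.01 ± 0.17 in NP-D@MP against PBS (adjusted p = 0.00023), and -2.86 and -2.95 with read totals. Supt4a had 1.49 ± 0.24 in NP-D@M against NP@M (SE; adjusted p = 0.000147) and 1.28 ± 0.24 in NP-D@MP against PBS (adjusted p = 0.000428), and -0.59 and -0.88 with read totals (adjusted p = 0.0538 and 0.00845). The share of Supt4a in the pair was 86.7% to 92.2% with D, against 50.3% to 61.3% in NP@M and 55.8% to 63.6% in PBS libraries, on 205 or more reads of Supt5 per library.

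Supt6 had 1.69, 1.82 and 2.15 FPKM in NP-D@MP and 2.09, 1.40 and 2.65 FPKM in NP-D@M libraries, against 10.2, 11.4 and 10.7 FPKM in NP@M and 10.5, 11.5 and 13.1 FPKM in PBS libraries. Supt6, a histone chaperone that travels with the polymerase, lies at GRCm38 chromosome 11, 78206746 to 78245987 and was lower in every library with D, at -1.97 ± 0.18 in NP-D@M against NP@M (SE; adjusted p = 1.68e-06) and -2.14 ± 0.18 in NP-D@MP against PBS (adjusted p = 9.57e-07). Supt16 had 0.409, 0.390 and 0.429 FPKM in NP-D@MP and 0.459, 0.936 and 0.380 FPKM in NP-D@M libraries, against 4.18, 10.9 and 5.02 FPKM in NP@M and 3.87, 5.47 and 9.04 FPKM in PBS libraries. Supt16, a subunit of the histone chaperone FACT, was lower as well, at -2.19 ± 0.32 and -2.27 ± 0.32 (SE; adjusted p = 7.76e-05 and 5.88e-05). Supt16 had passed the floor only without D. Its partner Ssrp1, no member by name, made up 97.4% to 99.0% of the pair's FPKM with D, against 68.5% to 81.1% in NP@M and 73.4% to 81.7% in PBS libraries. Of the SAGA genes Supt20 and Supt7l were called lower (-0.89 and -1.11 in NP-D@M against NP@M), Supt20 not without NP@M replicate 2 (-0.72, adjusted p = 0.0737) or NP-D@M replicate 1 (-0.61, adjusted p = 0.0955). Supt7l had passed the floor only without D. Supt3 had 0.27 as deposited, not called, and -1.04 with read totals. The pairs were picked after their values were seen, so the shares are descriptions.

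Direction depended on scaling for 10 of the 18 members called higher in NP-D@M against NP@M. These were Polr2k, Gtf2a2, Taf6l, Supt4a, Polr2e, Med11, Med25, Taf12, Polr2m and Med15, and 4 of the 10 were called lower with read totals. In NP-D@MP against PBS 8 of 18 turned and 5 of these were called lower. Of all tested genes 45.2% were called higher in the first comparison as deposited and 9.12% with read totals, and 45.7% and 9.01% in the second. A loss of higher calls was thus not particular to the members, and the share of all genes that turned was not counted. Gtf2h5 and Polr2g were called higher under both scalings in both comparisons, and Med30 in NP-D@M against NP@M. In all, 14 members had 0 reads in at least 1 library with D and 0 members did so without D (20% of the 70, beside 23.8% of all the table's genes with D and 12.6% without). Per library with D 3 to 9 members were at 0, or 4.29% to 12.9% of the 70, where 8.94% to 13.4% of all genes were. The 14 were Med4, Med6, Med7, Med12l, Med17, Med18, Med26, Med31, Polr2h, Supt7l, Taf1c, Taf5, Taf7 and Taf8.

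Called members differed in length. Members called lower in NP-D@M against NP@M had a median length of 4589 bp in the table and 12 exons, and those called higher 2912.5 bp and 5 exons. Spearman's rank correlation between length and log2 difference was -0.32 over the 66 members and -0.42 over all 8615 tested genes, and -0.29 and -0.42 in NP-D@MP against PBS. Of 15 members shorter than 2000 bp 6 were called higher and 6 lower, of 27 between 2000 and 5000 bp 8 and 17, and of 24 of 5000 bp or more 4 and 18. Length also went with the difference of the libraries that stood apart from their mates, in the opposite sense. The part of RNA quality in the differences with D was not tested. Without NP@M replicate 2 and PBS replicate 3, 18 members were called higher and 45 lower in NP-D@M against NP@M, and 20 and 44 in NP-D@MP against PBS, beside backgrounds of 45.2% and 47.6%, and 45.5% and 47.2% (92.7% in either direction in both).

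**Figure D5:**
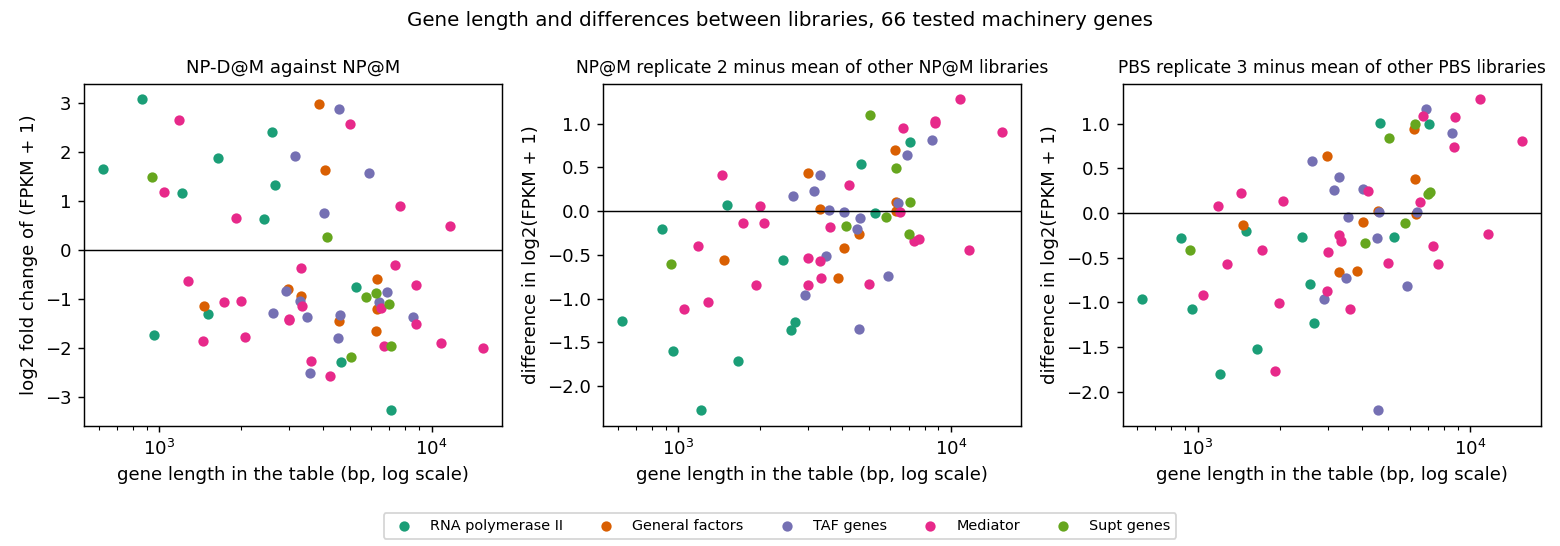
Gene length in base pairs (horizontal, log scale) against a log2 difference (vertical) for the 66 tested machinery genes: NP-D@M against NP@M on the left, and NP@M replicate 2 and PBS replicate 3 against the mean of their group mates. The Spearman rank correlation is -0.32 on the left, and 0.56 and 0.55 in the other panels.

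Genes that work with the machinery, in lists by function, were described by counts in NP-D@M against NP@M. Of the transcriptional CDKs, cyclins and TFIIH partners 8 of 8 tested were called lower and 0 higher under both scalings, with a median log2 difference of -1.23 as deposited, but 6 of the 8 had passed the floor only without D. Cdk7 had 0.0309, 0.0994 and 0.309 FPKM in NP-D@MP and 0.499, 0.138 and 0.182 FPKM in NP-D@M libraries, against 1.96, 1.64 and 1.99 FPKM in NP@M and 2.02, 1.98 and 2.85 FPKM in PBS libraries. Cdk7 is the TFIIH kinase that first phosphorylates the polymerase tail, and it was lower in every library with D. Cdk12 and Cdk13, kinases of the elongating polymerase, had -1.27 and -1.73, and Cdk8 of Mediator had -0.82. Of Integrator, which cleaves nascent RNA, 9 of 10 were called lower and 1 higher as deposited. Of polymerase I subunits 7 of 8 were lower and 1 higher, of polymerase III subunits 5 of 8 lower and 2 higher, of the PAF complex 4 of 5 lower and 1 higher, and of the TBP family 3 of 4 lower and 1 higher. CTD phosphatases and assembly factors had 7 of 10 lower and 1 higher. These counts stand beside the background of 46% lower and 45.2% higher, and 61.7% and 9.12% with read totals. Of the genes called lower, 6 of Integrator, 4 of polymerase I, 5 of polymerase III, 3 of the PAF complex, 2 of the TBP family and 6 of the CTD list had passed the floor only without D. With read totals 0 genes of these lists were called higher in that comparison.

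Of 11 tested elongation factors, 6 were called lower and 5 higher as deposited, and 9 lower and 0 higher with read totals, beside 46% and 45.2%, and 61.7% and 9.12%, of all tested genes. Of the 6 called lower, 5 had passed the floor only without D. Aff1 and Aff4, scaffolds of the super elongation complex, had -2.93 and -2.06, whereas Elob and Eloc, small Elongin subunits, had 3.16 and 1.27. Of the list for P-TEFb, 7SK and pausing 5 of 9 were called lower, 3 of which had passed the floor only without D, and 1 was called higher. Among the lower ones, Ccnt1, the cyclin partner of CDK9, had -2.03. The 1 called higher was Rn7sk, the 7SK RNA that holds P-TEFb inactive and is itself made by polymerase III, without a poly(A) tail. Rn7sk had 89.1, 305 and 243 FPKM in NP-D@MP and 107, 93.2 and 213 FPKM in NP-D@M libraries, against 0.256, 0 and 0.0803 FPKM in NP@M and 0.527, 0 and 1.15 FPKM in PBS libraries. Every library with D lay above every library without, and it was called higher with read totals too (5.78, against 6.87 as deposited). Rn7sk had passed the floor only in libraries with D, so its direction and calls are no support for a rise. Hexim1, the protein partner of 7SK, was not called (-0.61, adjusted p = 0.107).

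No member was called between NP@M and PBS. Of 66 members 0 were called in NP@M against PBS (0.0116% of all tested genes were), 0 had an unadjusted p under 0.05 with limma, against 27 of all tested genes, and voom on the recovered reads called 0. Log2 differences ran from -0.50 for Polr2f to 0.33 for Med22, with a median of -0.01. Without both libraries that stood apart they ran from -0.52 for Taf10 to 0.23 for Gtf2h1. Single libraries moved some of these values: without PBS replicate 3 Taf10 had -0.97, Polr2i -0.88 and Med9 -0.38, where they had -0.23, -0.28 and 0.21 with all libraries, and without NP@M replicate 2 Polr2i had 0.48. None of these was called. The 95% interval lay within 1 of 0 on the log2 scale for 58 members. For the other 8, Polr2f, Polr2l, Polr2i, Polr2d, Taf10, Taf15, Med9 and Med11, a 2-fold difference in FPKM + 1 could not be told apart from none. The interval of Polr2a ran from -0.65 to 0.65.

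No member was called between NP-D@MP and NP-D@M. Of 66 members 0 were called, where 0% of all tested genes were, and voom called 0. By limma, Med24 alone of the members had an unadjusted p under 0.05, beside 428 of all tested genes. It had 2.42, 1.65 and 1.48 FPKM in NP-D@MP and 1.06, 1.11 and 1.11 FPKM in NP-D@M libraries, a log2 difference of 0.43 with an interval of 0.10 to 0.76. Intervals of 55 members lay within 1 of 0 on the scale of log2(FPKM + 1). The 30 members that passed the floor only without D were low in these libraries, where the pseudocount holds differences near 0. Med18, with 0 reads in all 6 libraries with D, had an interval of -0.51 to 0.51. For such members the interval does not bound the fold change of FPKM. The widest interval was that of Polr2l, from -0.23 to 2.56: NP-D@MP replicate 3 had 69.3 FPKM and its mates 15.2 and 22.2. For Polr2a it ran from -0.49 to 0.81.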

How the data were processed

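RNA of 12 libraries was sequenced, 3 per group. The authors deposited 1 table of 11669 genes, whose FPKM values they had scaled for gene length and by a factor per library. The file header names no unit. It was read as FPKM because each gene's values are whole multiples of what 1 read is worth at its length. Of all values, 100% came out whole within 0.05. Bowtie 0.12.2 and the mm8 build are listed without a role, per the submitters' processing notes; how genes came into the table is not given in the sources used here. Reads per gene were recovered from these steps.

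Genes with at least 1 FPKM in 3 libraries (8615, of which 66 are members) were compared on log2(FPKM + 1) with limma 3.58.1 in R 4.3.3 (trend and robust options, 4 group means over 12 libraries, Benjamini-Hochberg adjustment over all genes tested, called at adjusted p under 0.05). Fold changes on this scale understate low genes. Intervals are 95% intervals of the fit. The fit was tested on simulated data. Tables were made with pandas 2.3.3 and numpy 2.4.6 and drawn with matplotlib 3.10.9 under Python 3.11.15, and scipy 1.17.1 gave rank correlations. Alternatives were recovered read totals, equal medians, quantile normalization, voom on recovered reads, other floors and pseudocounts, plain limma options, the 6 libraries compared alone, and leaving out each library; read totals without both libraries that stood apart were added after seeing the data. Bounds for genes at 0 assume 3 reads and reflect counting error alone.

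The rule names, per complex and comparison with D, up to 4 members called lower and 4 called higher with the largest change, a set of core genes, and every member at 0 or not tested; further members are named for completeness. Members and lists were chosen with earlier results of these data known. Gene positions are GRCm38 (GENCODE M21), printed where table and annotation hold equal coordinates; promoter sequences are from RefSeq (GRCm38.p6), which is not the build in the processing notes.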

Additional observations from a re-analysis of the deposited data

How the results depend on the processing

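In place of 18 members called higher in NP-D@M against NP@M, 3 were called with read totals, with voom on the recovered reads, and with read totals without both libraries that stood apart. In place of 18 in NP-D@MP against PBS there were 2, 2 and 3. Of all tested genes 9.12%, 8.76% and 11.1% were so called in the first comparison, in place of 45.2%. In the second these shares were 9.01%, 8.67% and 10.3%, in place of 45.7%. A floor of 5 FPKM, which left 34 members tested, gave 14 called lower in each comparison, where 41 and 44 had been. At that floor 30.4% and 30.5% of all 4758 tested genes were called lower, where 46% and 45.8% had been. Quantile normalization gave 28 called lower in NP-D@MP against PBS, where 33.7% of all tested genes were. Leaving out 1 library at a time gave 16 to 18 called higher and 39 to 42 lower in NP-D@M against NP@M, and 15 to 18 higher and 40 to 44 lower in NP-D@MP against PBS. It gave 0 in NP@M against PBS and in NP-D@MP against NP-D@M. Leaving a library out or changing the floor, the pseudocount, the fit options or the libraries in the fit turned the direction of 0 called members. Setting all libraries to equal medians gave 21 higher and 35 lower, and 21 higher and 33 lower.

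Direction turned in NP-D@M against NP@M with read totals and voom, as log2 differences, to -0.027 and -0.028 for Gtf2a2, -0.37 and -0.41 for Taf6l, -0.59 and -0.62 for Supt4a, -0.057 and -0.018 for Polr2k, -1.02 and -1.16 for Med25 and -1.07 and -1.27 for Taf12. The same pair of values was -0.70 and -0.74 for Polr2e, -0.82 and -0.88 for Med11, -1.47 and -1.52 for Polr2m, -1.39 and -1.61 for Med15, -1.04 and -1.71 for Supt3 and -1.27 and -1.43 for Med9. With quantile normalization it turned to -0.76 for Polr2m, 0.17 for Gtf2h3 and 0.40 for Med20, which was then called higher in both comparisons. Direction turned in NP-D@MP against PBS with read totals and voom, as log2 differences, to -0.22 and -0.24 for Taf6l, -0.88 and -0.91 for Supt4a, -0.66 and -0.74 for Med25, -1.07 and -1.28 for Taf12 and -0.28 and -0.29 for Polr2e. The same pair of values was -1.07 and -1.16 for Med11, -1.70 and -1.77 for Polr2m, -1.49 and -1.75 for Med15, -0.88 and -1.59 for Supt3 and -0.78 and -0.84 for Med9. With quantile normalization it turned to -0.068 for Supt4a, -0.91 for Polr2m, 0.29 for Gtf2h3, 0.43 for Med20 and 0.15 for Med27.

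Scaling to read totals lowers every library with D by construction; beyond that the cause was not tested. Members with fewer than 10 reads in libraries with D limit what the depth can show there. No paired analysis was possible because the labels number the libraries singly and share no replicate number between groups.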
